A study of Mus musculus with 10 samples.

Results

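The genes described are 8 members of the connexin and pannexin channel families, taken by symbol from the count and FPKM files, which hold 55367 genes. Gjd2 and Gjc1 are the neuronal connexins, Gja1, Gjb6, Gjb1 and Gjc3 the glial connexins, and Panx1 and Panx2 the pannexins. Each sample was the cytoplasm of 1 inspiratory neuron of the preBötzinger complex (preBötC), the brainstem site that generates the rhythm of breathing, drawn into a patch pipette after whole-cell recording in a slice from a newborn mouse. The 10 libraries, 1 per neuron, were made from full-length cDNA, and each gene was given as fragments and as FPKM, fragments per kilobase of gene per 1e+06 fragments on genes.

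Samples 4, 5, 6 and 7 were Type-1 neurons, the putative rhythm generators, sample 1 was the single Type-2 neuron, a putative pattern generator, and samples 2, 3, 8, 9 and 10 were Unknown, with electrical properties that fitted neither type. Samples 1, 5, 6 and 7 were Dbx1-derived and came from Dbx1;Ai148 mice, in which Cre from the Dbx1 promoter switches on a fluorescent calcium indicator in cells descended from Dbx1-expressing precursors. Samples 2, 3, 4, 8, 9 and 10 came from CD-1 wild-type (WT) mice, which carry no reporter, so their descent was not marked. These lines are those of the sample labels. Some figure legends of the study assign the mouse lines differently, which would bear on every comparison of Dbx1-derived with WT neurons. The study's text, however, counts 3 Type-1 neurons and 1 Type-2 neuron as Dbx1-derived. It counts 1 Type-1 and 5 Unknown neurons as CD-1, which matches the labels and not those legends. Samples 1, 3, 5 and 8 were taken at P0, sample 10 at P1, samples 2 and 9 at P2, and samples 4, 6 and 7 at P3. All 5 Unknown neurons were WT and 3 of the 4 Type-1 neurons were Dbx1-derived, so type and mouse line cannot be told apart. The labels name no animal, so every p-value measures the spread between neurons alone, and a lower level in a neuron cannot be told apart from less RNA drawn from it.

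Connexins assemble into rings in the plasma membrane, and rings of neighbouring cells dock to form gap junctions, through which ions and small molecules pass. Between neurons such junctions are electrical synapses, which in the mammalian brain are built mostly from the product of Gjd2, and electrical coupling has been recorded between respiratory neurons of the newborn brainstem. Between astrocytes they couple large networks that share potassium and metabolites. Pannexins have a similar membrane topology but do not normally dock, and Panx1 forms a channel that releases ATP from single cells.

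The coding sequences place the 6 connexins apart from the pannexins. Each connexin had a stretch of 36 bases in the first extracellular loop, the part that meets the docking partner, in which a cysteine codon was followed by 6 other codons, a second cysteine codon, 3 other codons and a further cysteine codon. These stretches are printed because the cysteines are a signature shared by the 6 connexins. A further reason is that sequence shared between members decides whether fragments can be given to the right gene. The stretches are from the GENCODE M21 transcripts on GRCm38, on the coding strand, 5′ to 3′, with the cysteine codons in capitals.
Gjd2, chr2:114011797-114011832, minus strand: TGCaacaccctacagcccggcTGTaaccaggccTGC
Gjc1, chr11:102800984-102801019, minus strand: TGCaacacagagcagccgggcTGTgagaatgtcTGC
Gja1, chr10:56387706-56387741, plus strand: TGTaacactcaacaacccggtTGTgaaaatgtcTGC
Gjb6, chr14:57124611-57124646, minus strand: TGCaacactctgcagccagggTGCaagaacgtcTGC
Gjb1, chrX:101384324-101384359, plus strand: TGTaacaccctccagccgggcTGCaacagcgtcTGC
Gjc3, chr5:137957797-137957832, minus strand: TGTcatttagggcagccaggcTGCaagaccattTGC
Each stretch lies within a single coding exon. Gjb6 and Gjb1 shared 29 of the 36 bases, the most of any pair, whereas Gjc3 shared 18 with Gjd2 and 18 with Gja1, the fewest. The reading frames of Panx1, with 426 codons, and Panx2, with 677, held no such pattern. Even so, the transcripts shared few stretches of 50 bases, a length shorter than a read, with other genes. Of all 50-base stretches of each gene, none of Panx1, Panx2, Gjb6 or Gjb1 was found in another gene, and the shares were 0.283% in Gjd2, 0.0396% in Gjc1, 0.115% in Gja1 and 2.07% in Gjc3.

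Several libraries stood apart before any member was considered. Totals ran from 21392146 to 36629393 fragments. Medians were taken over the 10405 genes with a fragment in most of the neurons. The median level was 0.203 to 1.62 FPKM in samples 1 to 4 and 3.47 to 8.66 FPKM in samples 5 to 10. Of 8 neuron markers, between 6 and 8 were at 1 FPKM or more in every sample, but their summed level was 58.4 FPKM in sample 4 against 761 to 4670 FPKM elsewhere, and that library, labelled Type-1, held all 8 microglia markers at 1 FPKM or more with a sum of 15398 FPKM. Sample 2 also held all 8, with a sum of 2039 FPKM. Astrocyte markers were most numerous in samples 2, 3 and 8, with 10, 9 and 11 of 12 at 1 FPKM or more.

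Each member was seen in a few neurons or in none, apart from the pannexins. Panx1 reached 1 FPKM in 6 of 10 neurons, Panx2 in 5, Gjd2 in 2, Gja1 in 2 and Gjb6 in 1. Gjc1 stayed below 1 FPKM in every neuron, and Gjb1 and Gjc3 had 0 fragments in all 10. Averaged over the 10 neurons, the level was 7.32 ± 8.33 FPKM for Panx1, 2.33 ± 5.84 for Gja1, 2.33 ± 3.35 for Panx2 and 1.25 ± 2.72 for Gjd2 (SD, n = 10), so the SD exceeded the mean for each and the order of these means lay within the spread between neurons. For comparison, of the 16546 genes that reached 1 FPKM in any neuron, 37.0% did so in 1 or 2 neurons and 45.5% in 5 or more.

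**Figure D1:**
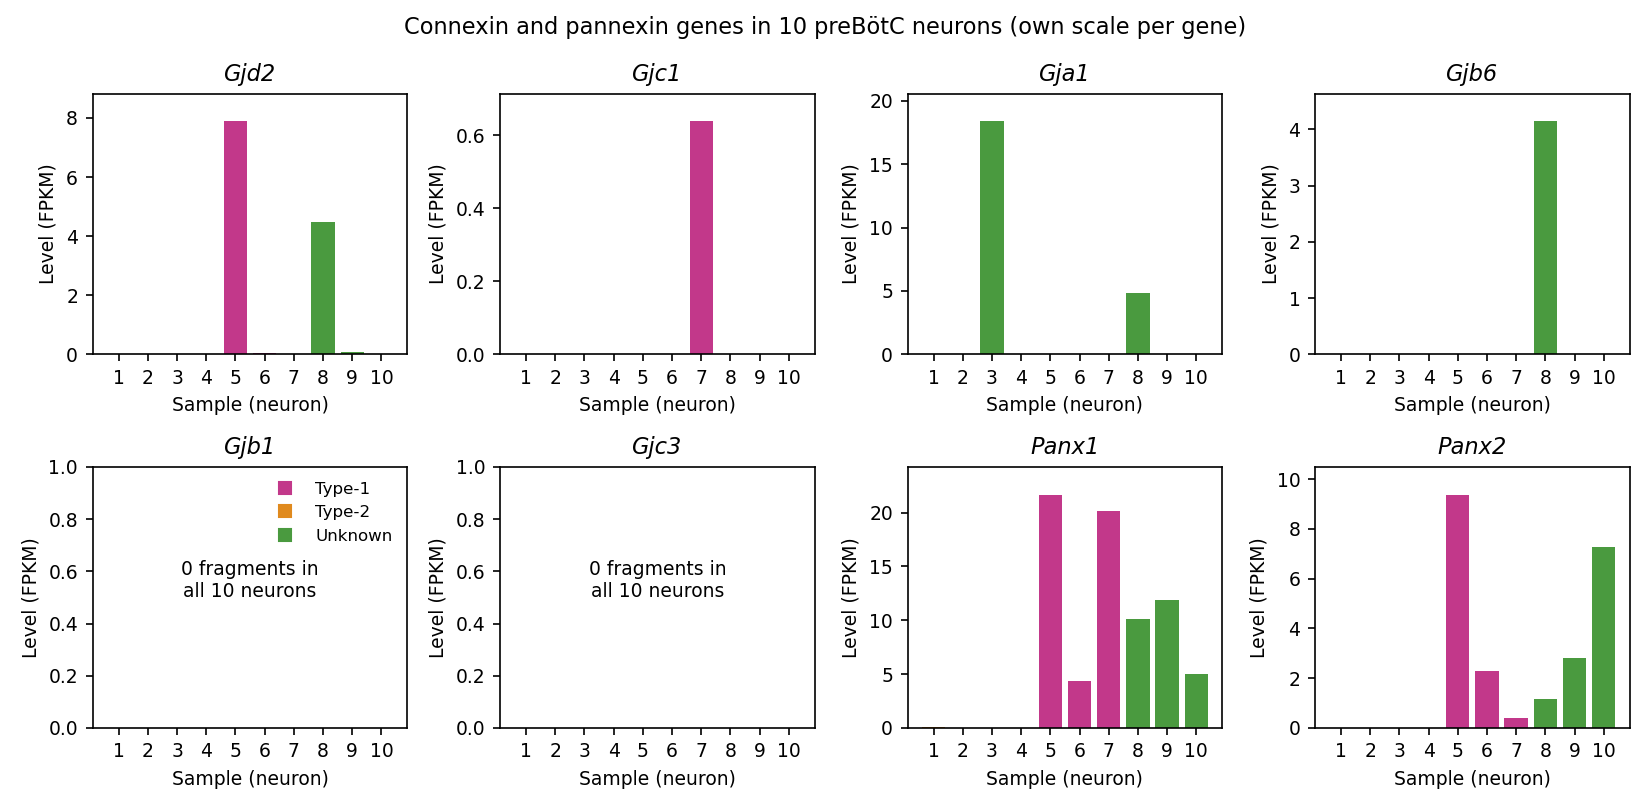
Level of each member (FPKM, own scale per gene) in samples 1 to 10, 1 bar per neuron, coloured by neuron type. Panx1 stood between 4.39 and 21.6 FPKM in samples 5 to 10 and at or below 0.0388 FPKM in samples 1 to 4, while each connexin that was seen stood out in 1 or 2 neurons.

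Gjd2 encodes Cx36, the main connexin of electrical synapses between mammalian neurons, and lies on chromosome 2 (114009601 to 114013619, minus strand). It was at 7.88 FPKM in sample 5, from 831 fragments, and at 4.47 FPKM in sample 8, from 342. Samples 6 and 9 held 5 fragments each (0.0552 and 0.0787 FPKM), sample 2 held 1 fragment (0.00958 FPKM), and samples 1, 3, 4, 7 and 10 held 0. A count of 0 was taken to allow up to 3 fragments, which for Gjd2 is 0.0284 to 0.0487 FPKM depending on the library. That limit covers the counting of fragments alone, and not RNA lost before sequencing. The exact Poisson 95% interval was 7.35 to 8.43 FPKM in sample 5 and 4.01 to 4.97 FPKM in sample 8, so these 2 neurons differed from each other beyond counting error, the only error such an interval covers. The neurons with Gjd2 were a Type-1, Dbx1-derived neuron and an Unknown, WT neuron, both taken at P0. The other P0 neurons, samples 1 and 3, had 0 fragments.

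Only a small part of Gjd2 could be confused with a neighbour. Of its 2879 exon bases, 57 (1.98%) are also exon of A530058N18Rik on the opposite strand, and the library kit did not keep strand. A530058N18Rik had 2242 fragments in sample 2, where Gjd2 had 1, and 285 and 1982 in samples 5 and 8. The Gjd2 level therefore did not follow that of its neighbour. Slc17a6, the vesicular transporter that marks glutamatergic neurons, was chosen after its values were seen, and was at 101, 158, 156 and 230 FPKM in samples 5, 6, 7 and 8 and at 1.85 FPKM or less elsewhere. Gjd2 was high in 2 of these 4 neurons and in none of the other 6. Some of the 4 also held genes for the synthesis of GABA, with Gad1 at 8.28 FPKM in sample 8 and Gad2 at 5.14 FPKM in sample 7, while both were at 0.0179 FPKM or less in samples 5 and 6.

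Gjc1 encodes Cx45, a connexin of some neurons and of heart and vascular muscle, and lies on chromosome 11 (102799579 to 102819700, minus strand). It was found in sample 7 alone, a Type-1, Dbx1-derived neuron of P3, at 0.638 FPKM from 82 fragments (95% interval 0.508 to 0.792 FPKM). The other 9 neurons had 0 fragments, which was taken to allow at most 0.0280 FPKM in any of them. Gjd2 had 0 fragments in sample 7, so no neuron held both neuronal connexins.

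Gja1 encodes Cx43, the principal connexin of astrocytes, and lies on chromosome 10 (56377330 to 56402513, plus strand). It was at 18.4 FPKM in sample 3, from 5868 fragments, and at 4.86 FPKM in sample 8, from 1323. Samples 1, 2, 4 and 7 held 4, 3, 9 and 3 fragments, which is 0.0298 FPKM or less, and samples 5, 6, 9 and 10 held 0. Both high neurons were Unknown, WT and P0. Gjb6 encodes Cx30, the other astrocyte connexin, on chromosome 14 (57123303 to 57133611, minus strand), and was at 4.14 FPKM in sample 8, from 294 fragments, with 0 fragments in the other 9 neurons. Sample 8 was the only neuron with both astrocyte connexins. The 95% intervals there were 4.60 to 5.12 FPKM for Gja1 and 3.68 to 4.64 FPKM for Gjb6. These intervals overlap, which does not show equal levels. In sample 3, where Gja1 was highest, 0 fragments of Gjb6 were taken to allow at most 0.0360 FPKM.

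Markers of astrocytes moved with the astrocyte connexins in part. Aqp4, the astrocyte water channel, was at 76.4 FPKM in sample 3 and 21.4 in sample 8, at 6.55 in sample 4 and 2.66 in sample 2, and at 0.131 FPKM or less in the rest. Mlc1, an astrocyte membrane protein, was at 93.5 FPKM in sample 3, 33.4 in sample 8 and 29.6 in sample 2. Other markers were ordered otherwise, as Slc1a3, a glutamate transporter of astrocytes, was highest in sample 1 (41.1 FPKM, with 4 fragments of Gja1), and Sox9, a transcription factor, was at 44.2 FPKM in sample 2 and 0.318 in sample 3. Sample 2 had 10 of 12 astrocyte markers at 1 FPKM or more, Gfap, an intermediate filament of astrocytes, at 37.9 FPKM among them, with 3 fragments of Gja1, and Gfap was at 0 in sample 3. Sample 4 had Apoe, a lipid carrier of astrocytes and activated microglia, at 4991 FPKM with 9 fragments of Gja1. Summed over the list, astrocyte markers ran from 398 to 6745 FPKM in the Unknown neurons. In the Type-1 neurons they ran from 151 to 5123 FPKM, so the groups overlapped. The Type-1 maximum was sample 4, where Apoe made up most of the sum. Among samples 5 to 10 the sum was 151 to 449 FPKM in Type-1 neurons and 398 to 2366 FPKM in Unknown neurons. The part of astrocyte RNA in the levels of Gja1 and Gjb6 was not tested. Without samples 2, 3, 4 and 8, Gja1 was at 0.0182 FPKM or less in the remaining 6 neurons and Gjb6 at 0. That outcome was fixed by leaving out samples 3 and 8, the only neurons with high Gja1 or with Gjb6, so it tests nothing.

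**Figure D2:**
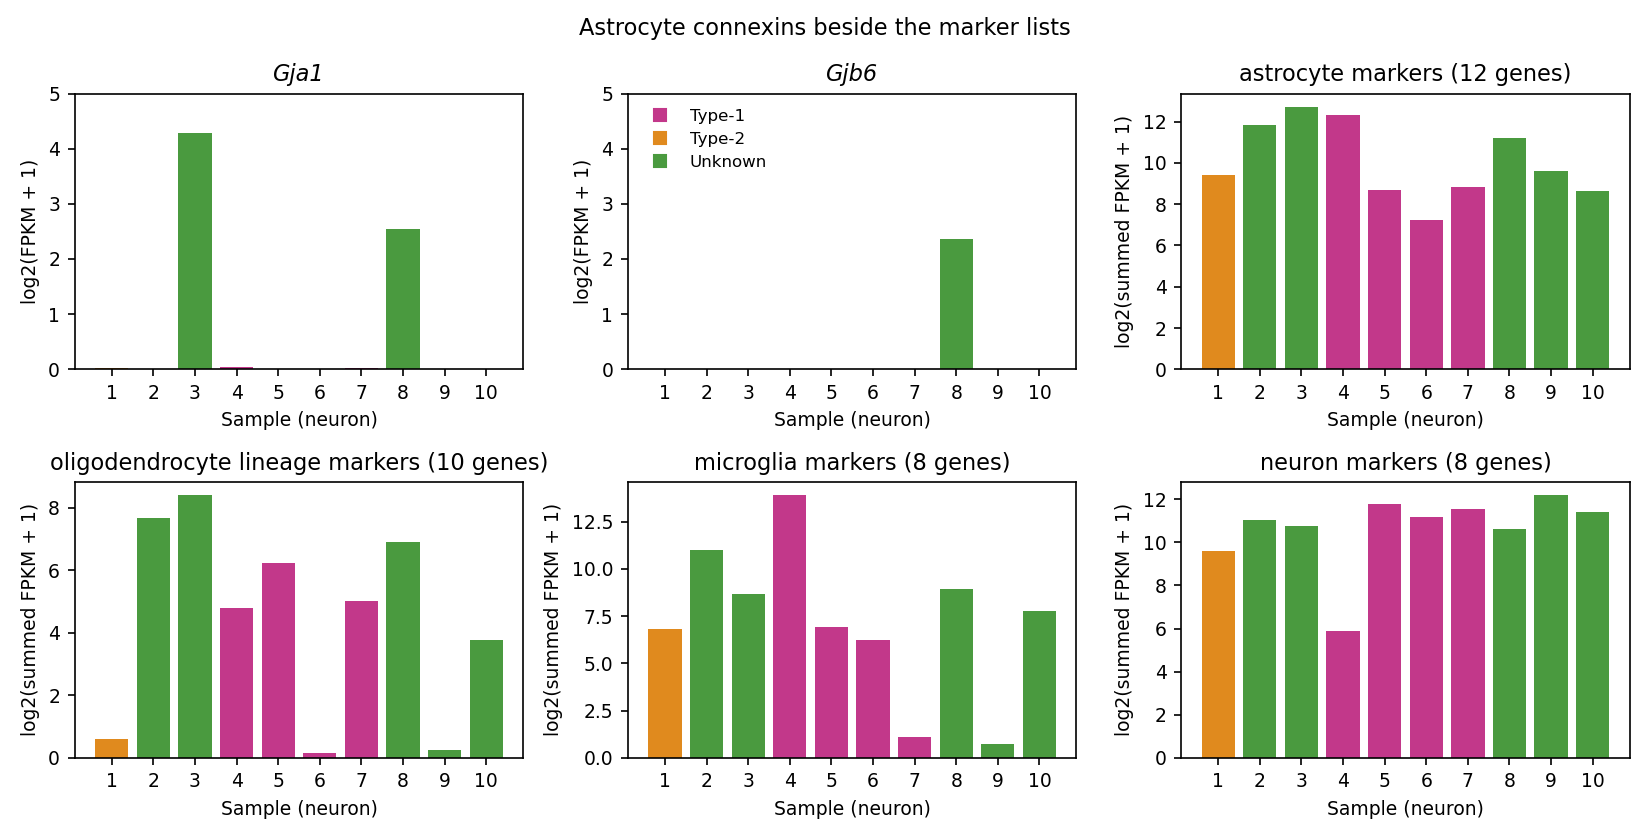
Gja1 and Gjb6 (log2(FPKM + 1)) above and beside the summed levels of the marker lists (log2(summed FPKM + 1)) in samples 1 to 10, 1 bar per neuron, coloured by neuron type. Samples 3 and 8, the neurons with Gja1, had 9 and 11 of 12 astrocyte markers, and sample 2, with 10 of 12, did not show it.

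Gjb1 encodes Cx32 and Gjc3 encodes Cx29, connexins of oligodendrocytes and Schwann cells that serve myelin, and they lie on chromosome X (101376378 to 101385629, plus strand) and chromosome 5 (137953461 to 137963098, minus strand). Both had 0 fragments in all 10 libraries, and 3 fragments would be 0.0480 to 0.0822 FPKM for Gjb1 and 0.0188 to 0.0322 FPKM for Gjc3. They were undetected also where genes of the oligodendrocyte lineage were present. Mbp, a major protein of myelin, was at 30.7 and 151 FPKM in samples 2 and 3. Sox10, a transcription factor of the lineage, was at 21.1 FPKM in sample 3 and 0 in sample 2, and Mog and Mag, proteins of mature myelin, were at 0 in both. In each of these samples 4 of the 10 markers reached 1 FPKM. Summed over 10 markers, that list came to 338 FPKM in sample 3 and to 0.511 FPKM or less in samples 1, 6 and 9.

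Panx1, the ATP-releasing pannexin, lies on chromosome 9 (15002128 to 15045478, minus strand) and was the member seen in most neurons. It was at 21.6 FPKM in sample 5, 20.1 in sample 7, 11.9 in sample 9, 10.1 in sample 8, 4.99 in sample 10 and 4.39 in sample 6, from 4778, 3112, 1585, 1623, 919 and 833 fragments. In samples 1, 2, 3 and 4 it had 5, 2, 1 and 0 fragments, which is at most 0.0388 FPKM and at most 0.105% of the count in sample 5. The neurons thus fell into 6 with Panx1 and 4 with almost none, with no level in between. Among the 6, samples 10 and 6 had overlapping 95% counting intervals (4.68 to 5.33 and 4.09 to 4.70 FPKM). Those of the other neighbours in this order did not overlap. Overlap alone does not show equal levels.

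Panx2, a pannexin of brain neurons found largely on membranes inside the cell, lies on chromosome 15 (89059734 to 89073567, plus strand). It was at 9.37 FPKM in sample 5, 7.27 in sample 10, 2.82 in sample 9, 2.27 in sample 6, 1.16 in sample 8 and 0.400 in sample 7, from 1235, 798, 224, 257, 111 and 37 fragments. Samples 1 to 4 held 0, which was taken to allow at most 0.0390 FPKM. Of the neighbours in this order, samples 9 and 6 had overlapping intervals (2.46 to 3.21 and 2.00 to 2.56 FPKM). Here too, overlap does not show equal levels. Fragments of Panx2 were therefore found only in the 6 neurons where Panx1 reached 1 FPKM, and in sample 7 Panx2 stayed below 1 FPKM. These 6 are samples 5 to 10, the libraries with the higher median levels. The pannexins stood there in unequal proportion. The level of Panx1 was 1.93 times that of Panx2 in sample 6, 2.31 times in sample 5, 4.22 times in sample 9, 8.73 times in sample 8 and 50.2 times in sample 7. Sample 10 was the exception, with 0.687 times.

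The neurons without pannexins were those with low median levels over the 10405 genes compared above. Of the 3730 genes at 1 FPKM or more in each of samples 5 to 10, between 17.2% and 24.5% were under 0.1 FPKM in any 1 of samples 1 to 4, and 79 genes (2.12%), Panx1 among them, were under 0.1 FPKM in all 4, a pattern chosen after its values were seen. Samples 1 to 4 held a Type-2, a Type-1 and 2 Unknown neurons of both mouse lines. The part of the lower medians of these libraries in the absence of pannexins was not tested.

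Panx1 was compared between neuron types first, to ask whether putative rhythm generators differ from unclassified neurons. Its levels were 0, 21.6, 4.39 and 20.1 FPKM in the Type-1 neurons (11.5 ± 10.9, SD, n = 4) and 0.00915, 0.00532, 10.1, 11.9 and 4.99 FPKM in the Unknown neurons (5.41 ± 5.55, SD, n = 5), and the groups overlapped over most of their range. In edgeR's quasi-likelihood test the log2 fold change of the fragment counts was 0.92 (SE 2.09, Benjamini-Hochberg adjusted p = 0.9998). Panx2 levels were 0, 9.37, 2.27 and 0.400 FPKM in the Type-1 neurons and 0, 0, 1.16, 2.82 and 7.27 FPKM in the Unknown neurons, with a log2 fold change of 0.39 (SE 2.35, edgeR adjusted p = 0.9998). The difference was smaller than its error for both. The direction of Panx2 depended on which libraries were kept. Without sample 5 its log2 fold change was -1.38, and without samples 2, 3, 4 and 8 it was -0.39, with 0.51 for Panx1.

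Dbx1-derived neurons were then set against WT neurons. Panx1 levels were 0.0388, 21.6, 4.39 and 20.1 FPKM in the Dbx1-derived neurons (11.5 ± 10.9, SD, n = 4) and from 0 through a median of 2.50 to 11.9 FPKM in the 6 WT neurons, with a log2 fold change of 1.19 (SE 2.08, edgeR adjusted p = 0.9992). Panx2 was at 0, 9.37, 2.27 and 0.400 FPKM in the Dbx1-derived neurons and from 0 through a median of 0.581 to 7.27 FPKM in the WT neurons, with a log2 fold change of 0.65 (SE 2.34, edgeR adjusted p = 0.9992). Neither difference exceeded its error. Without samples 2, 3, 4 and 8 the log2 fold change was 0.10 for Panx1 and -0.80 for Panx2, and without sample 5 it was -1.03 for Panx2. The 3 Type-1 neurons among samples 5 to 10 are also the Dbx1-derived ones, so in these 6 neurons both comparisons are the same, and there the log2 fold change was 0.54 (SE 0.99) for Panx1 and 0.03 (SE 1.84) for Panx2, with edgeR adjusted p = 0.9996 for each.

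**Figure D3:**
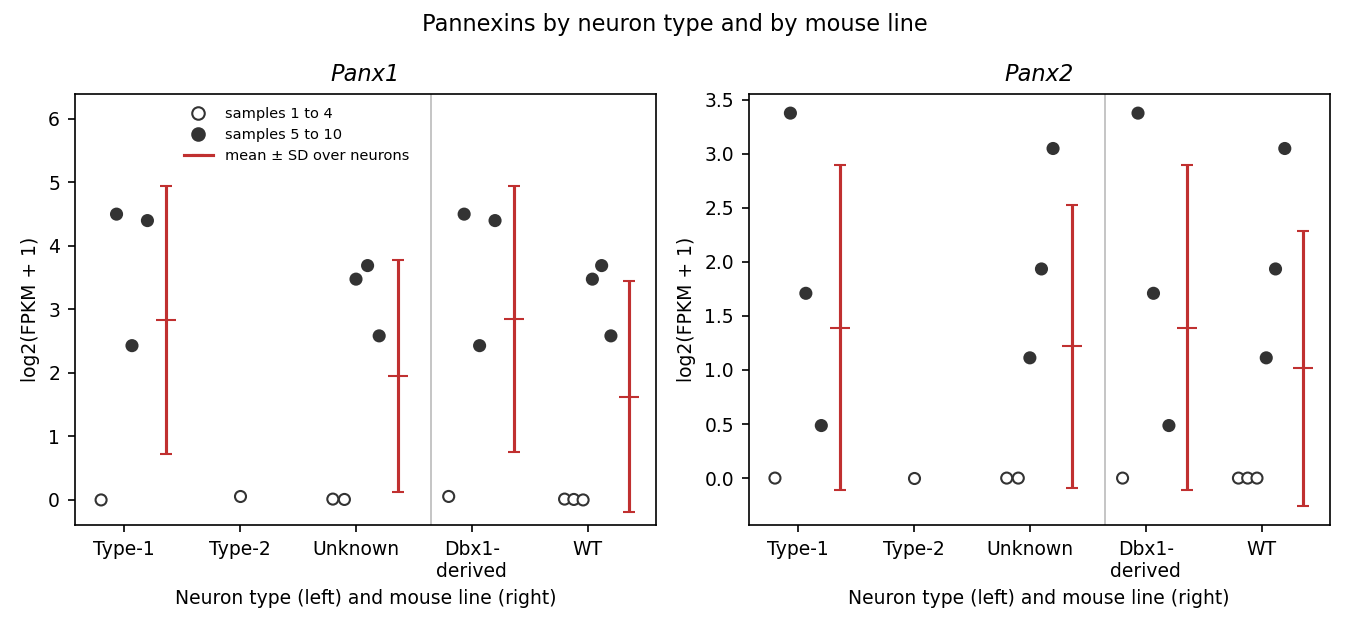
Panx1 and Panx2 (log2(FPKM + 1)) by neuron type and by mouse line, 1 point per neuron, open for samples 1 to 4 and filled for samples 5 to 10, with the mean ± SD of each group of more than 1 neuron. The groups overlapped for both genes, and the open points lay at or near 0 in every group.

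Of the 8 members, only the pannexins passed the filter on low counts and were tested, and edgeR called 0 of them in either comparison, against a background of 0% of all genes tested. The test called 0 of 9889 genes for Type-1 versus Unknown, with 230 at an unadjusted p under 0.05, and 0 of 10198 genes for Dbx1-derived versus WT, with 643. DESeq2 called 131 and 344 genes and limma 0 and 0, and none of the calls was a member.

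The remaining connexins were compared by an exact two-sided permutation test of the difference in mean log2(FPKM + 1). For Gjd2, Gja1 and the pannexins the smallest p the values allow was 0.00794 between types and 0.00476 between mouse lines, but for Gjc1 and Gjb6, each found in 1 neuron, it was 0.444 and 0.4, so their test could not pass. These p-values are unadjusted, over 12 tests of the 6 members with any fragment. Gjd2 differed by 0.29 between Type-1 and Unknown neurons (exact permutation p = 0.643) and by 0.38 between Dbx1-derived and WT neurons (exact permutation p = 0.638). Gja1 differed by -1.35 between Type-1 and Unknown neurons, with the lower mean in Type-1 (exact permutation p = 0.413) and differed by -1.14 between the lines (exact permutation p = 0.3), and its only high neurons were samples 3 and 8. For Gjc1 the differences were 0.18 and 0.18 (exact permutation p = 0.444 and 0.4), and for Gjb6 -0.47 and -0.39 (exact permutation p = 1 and 1). The same test gave Panx1 0.88 and 1.22 (exact permutation p = 0.548 and 0.319) and Panx2 0.17 and 0.38 (exact permutation p = 0.849 and 0.681). For a gene with 1 or 2 high neurons this p depends mostly on the group those neurons fall in, so it says little of the condition.

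**Figure D4:**
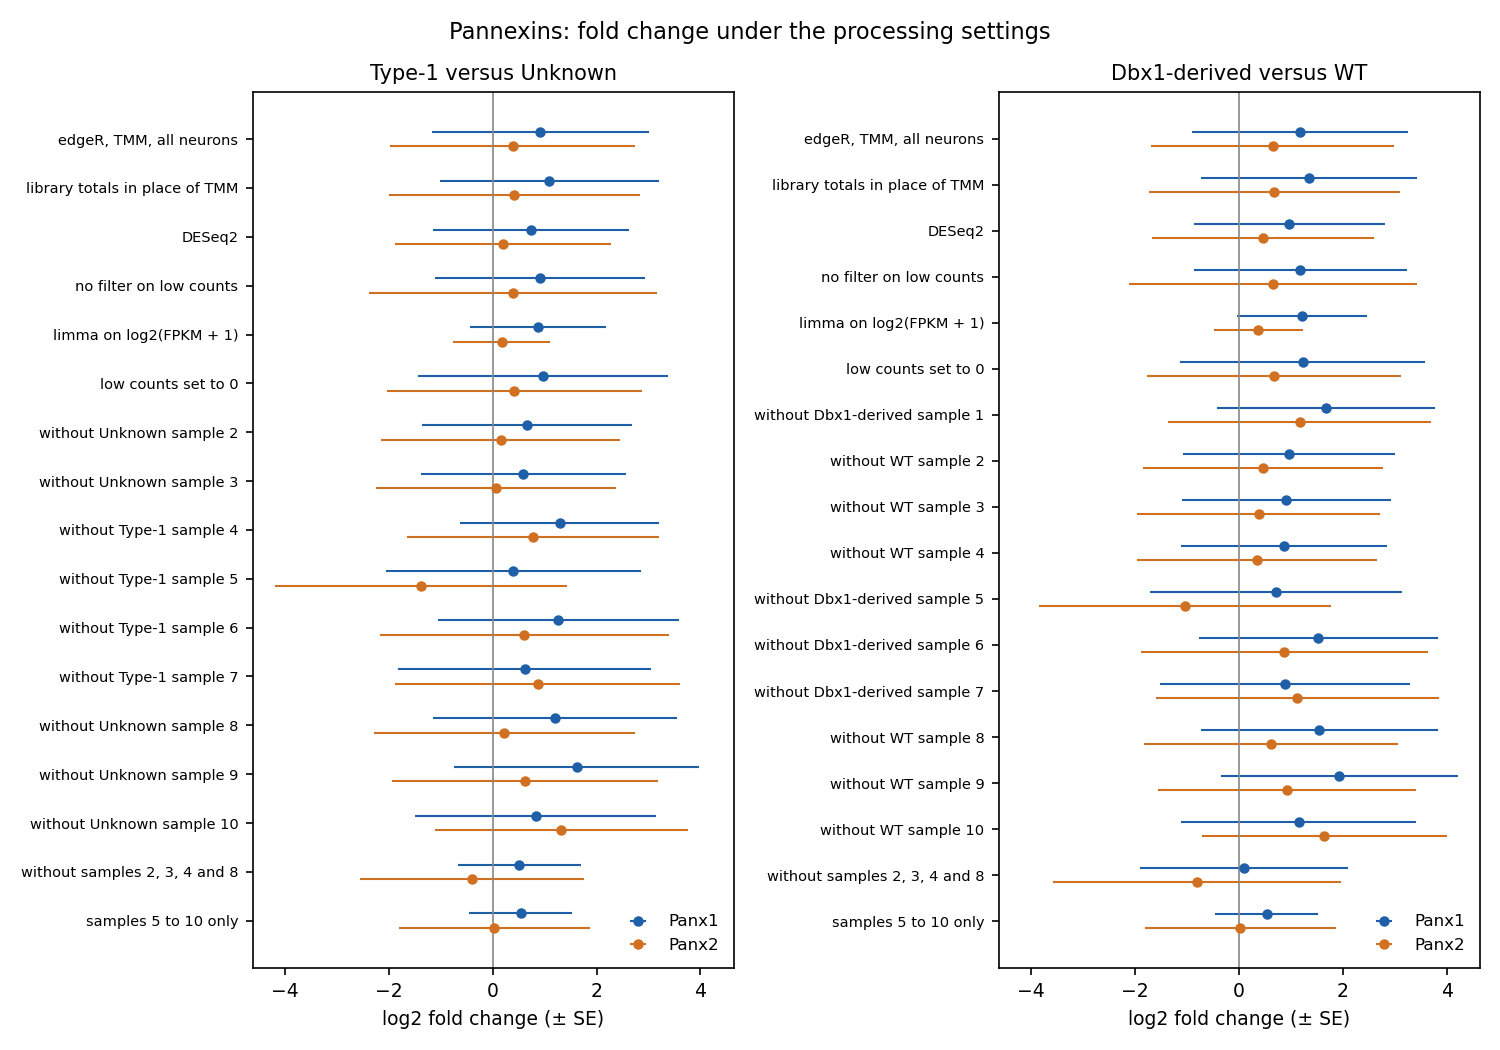
Log2 fold change ± SE of Panx1 and Panx2 for Type-1 versus Unknown (left) and Dbx1-derived versus WT (right) neurons under the processing settings, 1 row each, with the fit within Type-1 neurons left out. Panx1 stayed above 0 in each row shown, and Panx2 fell below 0 without sample 5 and without samples 2, 3, 4 and 8.

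Most of the rest of the family was not detected, but some of its genes reached levels like those of the member connexins. Of 15 further connexin and pannexin genes, 10 had 0 fragments in all neurons and 4 reached 1 FPKM in at least 1. Gja4, a connexin of vascular endothelium, was at 4.03 FPKM in sample 9 and 19.5 in sample 10, while the endothelial markers Cldn5, Pecam1, Cdh5 and Kdr, 4 of the 8 on the list, were at 0 in all neurons and the whole list summed to 0.0253 and 0.0121 FPKM in samples 9 and 10. Gjd3 was at 12.6 FPKM in sample 5, where Gjd2 was also highest. In sample 8 Gjd3 was below 1 FPKM, at 0.855 from 19 fragments, and sample 6 held 1 fragment. Gja5, a connexin of arteries and the heart, was at 1.26 FPKM in sample 8. No neuron held more than 2 of the 15 at 1 FPKM or more.

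Partners of the channels were more widely seen. Of 18 genes for scaffolds, regulators and binding partners, 17 reached 1 FPKM in at least 1 neuron and 6 in all 10. The highest by mean level were Tuba1a, a tubulin, at 159 to 8038 FPKM, and Calm2, a calmodulin gene, at 605 to 2616 FPKM. Tjp1 encodes ZO-1, a scaffold that binds the tail of Cx36, and was at 5.05, 4.83 and 4.27 FPKM in samples 5, 6 and 7, the Dbx1-derived Type-1 neurons, 0.251 in sample 8 and 0.0174 or less elsewhere. It was therefore present with Gjd2 in sample 5, low beside Gjd2 in sample 8, and present with almost no Gjd2 in samples 6 and 7. In edgeR 0 of the 13 partners tested were called between the lines.

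Of 16 other channels and transporters for ATP or anions, 9 reached 1 FPKM in at least 1 neuron. Vdac1, a channel of the outer mitochondrial membrane, was at 65.0 to 274 FPKM and was the only one at 1 FPKM or more in all 10 neurons. Ttyh1 ran from 0.122 to 104 FPKM and Ttyh3 from 0.0319 to 12.0 FPKM. Calhm6, named after its values were seen, was at 39.3 FPKM in sample 9 and 0.0581 or less in the others. Slc17a9, the vesicular nucleotide transporter, had 0 fragments in every neuron.

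The genes most like Panx1 across the 10 neurons, by Pearson's correlation of log2(FPKM + 1) among the 10419 genes that reached 1 FPKM in 3 neurons or more, were Tceal1 (r = 0.988), Oprl1 (0.987), Vps51 (0.987), Blvra (0.981) and Entpd4 (0.973), and 80 genes had r over 0.9. Entpd4 has a near-identical copy, so its counts are uncertain. Those most like Panx2 were Cds2 (0.952), Ppil3 (0.938), Gorab (0.934), Asphd2 (0.932) and Uqcc1 (0.922), with 12 genes over 0.9. These values describe 10 points that share the split between samples 1 to 4 and the rest, and the connexins, seen in fewer than 3 neurons, were not ranked.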

How the data were processed

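Cytoplasm of 10 single preBötC neurons was converted to cDNA with a SMART-Seq kit that does not keep strand, and sequenced as paired ends. The authors checked reads with FastQC 0.11.8, trimmed adapters, aligned them to GRCm38 with STAR 2.7.7a and counted fragments per gene with featureCounts. The authors deposited these counts without normalization, the length of each gene, and FPKM values derived from the pair. Options for fragments matching several places were not given in the sources used here.

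From the deposited counts, TMM scaling, filterByExpr and edgeR's quasi-likelihood test were applied to all genes, with Benjamini-Hochberg adjustment and a threshold of 0.05 (edgeR 4.0.16, limma 3.58.1 and DESeq2 1.42.0 in R 4.3.3). FPKM was used as deposited for levels and exact permutation tests, with a pseudocount of 1. The permutation tests were run in R, and the levels and intervals were computed in Python 3.11.15 with SciPy 1.17.1. The Type-2 neuron entered no comparison of types. Members and gene lists were chosen with earlier results of these data known. All 8 members were named. Of the 3 further lists, the 3 genes with the highest mean FPKM and any called gene were named, and others named were chosen after their values were seen. Some of these genes were left out and are not reported here. The fits were tested on simulated data. Totals were 21392146 to 36629393 fragments, and 3 fragments were taken as what a count of 0 allows. The exact Poisson 95% interval for 0 fragments reaches slightly higher, to 3.69 fragments. Intervals are exact Poisson 95% intervals for counting error only, and amplified reads carried no molecular identifiers. Positions and sequences are from GENCODE M21 on GRCm38. Alternatives were library totals, DESeq2, no filter on low counts, limma on log2(FPKM + 1), low counts set to 0, TPM, other thresholds, and leaving out neurons.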

Additional observations from a re-analysis of the deposited data

Results flagged for a closer look

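In 8 of the 20 groups of 4 to 6 neurons examined over the members, 1 neuron stood apart from the others of its group by Dixon's criterion, which chance meets in about 1 group in 20. That is 40% of the groups, and over all genes with any spread 43.4% of groups (31893 of 73562) met it, so the share among the members is near the background of these files. The groups by type and by mouse line share neurons, so these are 4 neuron and gene pairs. Gjd2 stood apart in sample 5, at 7.88 FPKM against a next highest of 0.0552 FPKM, among both the Type-1 and the Dbx1-derived neurons. It also stood apart in sample 8, at 4.47 FPKM against 0.0787 FPKM, among both the Unknown and the WT neurons. Gjc1 stood apart in sample 7, at 0.638 FPKM against 0, among the Type-1 and the Dbx1-derived neurons. Gjb6 stood apart in sample 8, at 4.14 FPKM against 0, among the Unknown and the WT neurons, in the library that also held 11 of 12 astrocyte markers.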

How the results depend on the processing

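The count of genes called was 0 in both comparisons under 14 of 16 alternatives for Type-1 versus Unknown and 15 of 18 for Dbx1-derived versus WT. The exceptions were DESeq2 (131 and 344 genes), no filter on low counts (1 and 25 genes) and the fit within Type-1 neurons (527 genes), in which sample 4 is the lone WT neuron and is assumed to vary like the others. No member was called under any of them, and the lowest adjusted p of a member was 0.0793, for Panx1 in that last fit. Leaving out each neuron in turn gave 0 to 0 genes in both comparisons. It gave log2 fold changes of 0.40 to 1.62 for Panx1 and -1.38 to 1.33 for Panx2 between types, and 0.72 to 1.94 and -1.03 to 1.65 between mouse lines. Panx2 reversed without sample 5 (-1.38 and -1.03) and without samples 2, 3, 4 and 8 (-0.39 and -0.80), and the cause was not tested. The fit on samples 5 to 10 was chosen after seeing the data and also called 0 genes. Library totals in place of TMM moved the median log2 fold change of all genes from -0.08 to 0.07 between types and from -0.11 to 0.11 between lines, and Panx1 and Panx2 kept their direction. Counting any fragment in place of 1 FPKM raised the neurons with Gjd2 from 2 to 5, Gja1 from 2 to 6 and Gjc1 from 0 to 1. No paired analysis was possible because no label ties neurons of different groups together.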
